A study of Mus musculus with 22 samples.

Results

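The 8 transcription factors described here, Spi1, Irf8, Irf5, Sall1, Runx1, Cebpa, Ikzf1 and Bhlhe41, take part in making and maintaining microglia, the resident macrophages of the brain. They were chosen by gene symbol from the 55385 genes of the transcript index, and each gene's value is the sum over its annotated transcripts. Their ribosome-bound mRNA was followed in microglia and 5 other brain cell types: astrocytes, inhibitory interneurons, layer V cortical neurons, and the granule cells of the cerebellum and of the dentate gyrus.

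Microglia descend from yolk sac progenitors that enter the brain early in development and renew themselves locally. Spi1 encodes PU.1, an ETS-domain factor on which the myeloid lineage depends, and IRF8 can bind DNA jointly with PU.1 at composite ETS-IRF elements. RUNX1 and IKZF1 (Ikaros) act in haematopoietic progenitors and in several blood lineages, C/EBP alpha is a myeloid and adipocyte bZIP factor, IRF5 carries signals from Toll-like receptors to cytokine genes, BHLHE41 (DEC2) is an E-box repressor that is also known from the circadian clock, and SALL1 is a zinc-finger repressor needed for microglial identity and also used in kidney development.

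All mice carried 1 floxed Rpl22 allele (Rpl22 Fl/+), which after Cre recombination adds an HA tag to ribosomal protein RPL22, so that ribosomes of the recombined cells could be precipitated from whole tissue. Microglia (Tmem119-cre) and astrocytes (labelled Aldh1-cre) came from cortex. Both of these Cre lines are tamoxifen-inducible according to the study's methods, and the microglial Cre is a knock-in at Tmem119, itself a microglial marker. Rbp4-Cre marked the dentate gyrus granule cells in hippocampus and the layer V neurons in cortex, Gabra6-Cre the granule cells in cerebellum, and Dlx6a-Cre the interneurons in hippocampus, where tissue of 2 mice was pooled for each library. All animals were 6 weeks old. There were 3 biological replicates for each cell type, and 4 of the 18 replicates were sequenced in 2 batches, giving 22 libraries. The first-batch library was used for those 4, and the 18 libraries compared held 38270477 to 71440915 estimated counts (reads that the quantification software assigned to transcripts). Microglia and interneurons had been sequenced in batch 2 alone. For 1 of the 22 libraries, the second-batch library of layer V replicate 1, the labelled sex went against its sex-linked transcripts. That library entered the comparison between batches and the alternative fits, but was not among the 18 libraries compared.

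The cell type labels were checked against marker genes. Summed over 8 microglial markers (Tmem119, P2ry12, Siglech, Cx3cr1, Csf1r, Olfml3, Gpr34 and Fcrls), levels were 12430 to 13320 TPM (a relative transcript level, scaled for transcript length and sequencing depth) in microglia. They were 37.8 to 53.1 TPM in astrocytes, 7.27 to 8.34 in interneurons, 6.46 to 9.004 in dentate gyrus granule cells, 4.89 to 5.10 in layer V neurons and 0.754 to 1.02 in cerebellar granule cells. None of the 8 markers was at 0 in all libraries of any cell type, so mRNA of each marker was detected in every cell type. The astrocyte, dentate gyrus, cerebellar and interneuron lists each summed highest in their own type. The 3 layer V markers summed to 197.4 to 210.5 TPM there, 206 to 231 in dentate gyrus granule cells and 712 to 745 in cerebellar granule cells. Of these 3, Fezf2 alone had its highest mean in layer V neurons. Markers of other cells were present in microglial libraries too: 7 border macrophage markers summed to 10.6 to 14.5 TPM, 10 blood leukocyte markers to 5.45 to 6.84 (with Ly6g at 0 in all 3 libraries), and 6 neuronal markers to 431 to 491 TPM, against 12940 to 13140 TPM for the neuronal list in cerebellar granule cells. The 5 endothelial markers, among them Cldn5 and Flt1, summed to 149 to 224 TPM in microglia against 2.86 to 36.5 TPM in the other types, and all 5 were called higher in microglia than in the mean of the others, with a median log2 fold change of 4.38. In microglia, 6 oligodendrocyte-lineage markers summed to 454.5 to 540 TPM. There 5 astrocyte markers summed to 161 to 210 TPM, against 16.4 to 65.9 TPM in the neuronal types. Of these 2 lists, 4 and 3 markers were called higher in microglia than in the mean of the others, and 1 oligodendrocyte-lineage marker lower. That comparison called 43.2% of all tested genes higher and 37.5% lower. The part of endothelial, oligodendrocyte-lineage and astrocyte RNA in the microglial results was not tested. In bulk precipitates of this kind fewer cells of a type and less RNA per cell cannot be told apart.

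On GRCm38, Spi1 (ENSMUSG00000002111.8) lies at chr2:91082390-91115756 on the plus strand and Cebpa (ENSMUSG00000034957.10) at chr7:35119293-35121928 on the plus strand. Irf5 (ENSMUSG00000029771.12) and Bhlhe41 (ENSMUSG00000030256.11) share chromosome 6, at chr6:29526625-29541871 (plus) and chr6:145858243-145865558 (minus). Sall1 (ENSMUSG00000031665.7) and Irf8 (ENSMUSG00000041515.10) share chromosome 8, at chr8:89027235-89044162 (minus) and chr8:120736358-120756694 (plus). Ikzf1 (ENSMUSG00000018654.17) lies at chr11:11685003-11772926 (plus) and Runx1 (ENSMUSG00000022952.17) at chr16:92601466-92826149 (minus). Of the 8, all but Spi1 and Sall1 overlap another annotated gene, and reads of such regions may have been divided between the overlapping models.

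Runx1 has a distal and a proximal promoter whose transcripts were quantified separately, so its start regions are shown with those results in view. RefSeq's promoter table (GRCm38.p6, 250 bases before and 50 after each annotated start) holds 12 windows for 7 of the 8 genes and lists none for Spi1. The distal Runx1 start is 92826074 in RefSeq and 92826149 for the transcript Runx1-201 quantified here, and the distal bases printed lie upstream of both. The bases upstream of the distal start, chr16:92826150-92826324 on the minus strand, and of the proximal start, chr16:92697330-92697579 on the minus strand, follow, with a GAGGAA core of PU.1 sites (read on the opposite strand) in capitals.
Runx1 distal: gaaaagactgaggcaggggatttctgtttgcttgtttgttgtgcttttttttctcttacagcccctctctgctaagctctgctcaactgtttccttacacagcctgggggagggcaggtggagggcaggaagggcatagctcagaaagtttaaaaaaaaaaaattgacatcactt
Runx1 proximal: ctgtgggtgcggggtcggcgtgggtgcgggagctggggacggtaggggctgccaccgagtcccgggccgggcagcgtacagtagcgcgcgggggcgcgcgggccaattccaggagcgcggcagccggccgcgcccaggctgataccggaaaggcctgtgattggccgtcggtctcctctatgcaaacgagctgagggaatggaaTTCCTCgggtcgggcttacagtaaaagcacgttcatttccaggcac

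The distal Runx1 window contained a pair of RUNX motifs (TGTGGT, present as ACCACA) just after the RefSeq start, at chr16:92826027-92826052, and a CACGTG E-box, the sequence that DEC factors such as BHLHE41 bind, at chr16:92826130-92826155. Both lie on the minus strand and are shown with their flanks because RUNX1 and BHLHE41 are themselves among the 8 factors. The E-box is upstream of the RefSeq start only, since it and the RUNX pair lie downstream of the Runx1-201 start at 92826149. The promoter of Bhlhe41, chr6:145865559-145865670 on the minus strand, is shown for the same E-box.
Runx1 RUNX pair: taaacaACCACAgaACCACAagttgg
Runx1 E-box: tcacttaagtCACGTGattggcaaga
Bhlhe41: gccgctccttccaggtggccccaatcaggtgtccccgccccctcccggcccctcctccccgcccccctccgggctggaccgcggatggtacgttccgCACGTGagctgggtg

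These motifs are common. On either strand, GAGGAA was found in 28.3% of the 32851 mouse promoter windows of this length, TGTGGT in 16.8% and CACGTG in 7.15%. Among the 12 windows of the factors, GAGGAA and TGTGGT each occurred in 1, the proximal and the distal Runx1 window, and CACGTG in 2. None of the 12 windows held the tandem repeat motif of IRF proteins (3.44% of all windows), the composite ETS-IRF motif (2.72%) or the C/EBP motif TTGCNNAA (10.8%), where N is any base. These are matches of letters only. The GC content of the distal Runx1 window was 45%, against 69% for the proximal one and a median of 52.7% over all windows.

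In microglia, Spi1 was the most abundant of the 8 mRNAs and Runx1 the least. Spi1 was at 444, 429 and 404 TPM in replicates 1 to 3, a mean of 426 ± 20.2 TPM (SD, n = 3). Cebpa followed with 301 ± 30.3 TPM, Irf5 with 205 ± 5.73, Irf8 with 174 ± 29.6, Sall1 with 157 ± 16.8 and Ikzf1 with 130 ± 6.66 (SD, n = 3 each). Bhlhe41 was at 43.2 ± 5.40 TPM and Runx1 at 22.4 ± 1.40. Among all 55385 genes ranked by mean microglial TPM, Spi1 was 286th, Cebpa 428th, Irf5 699th, Irf8 838th, Sall1 947th, Ikzf1 1131st, Bhlhe41 3615th and Runx1 6029th.

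**Figure D1:**
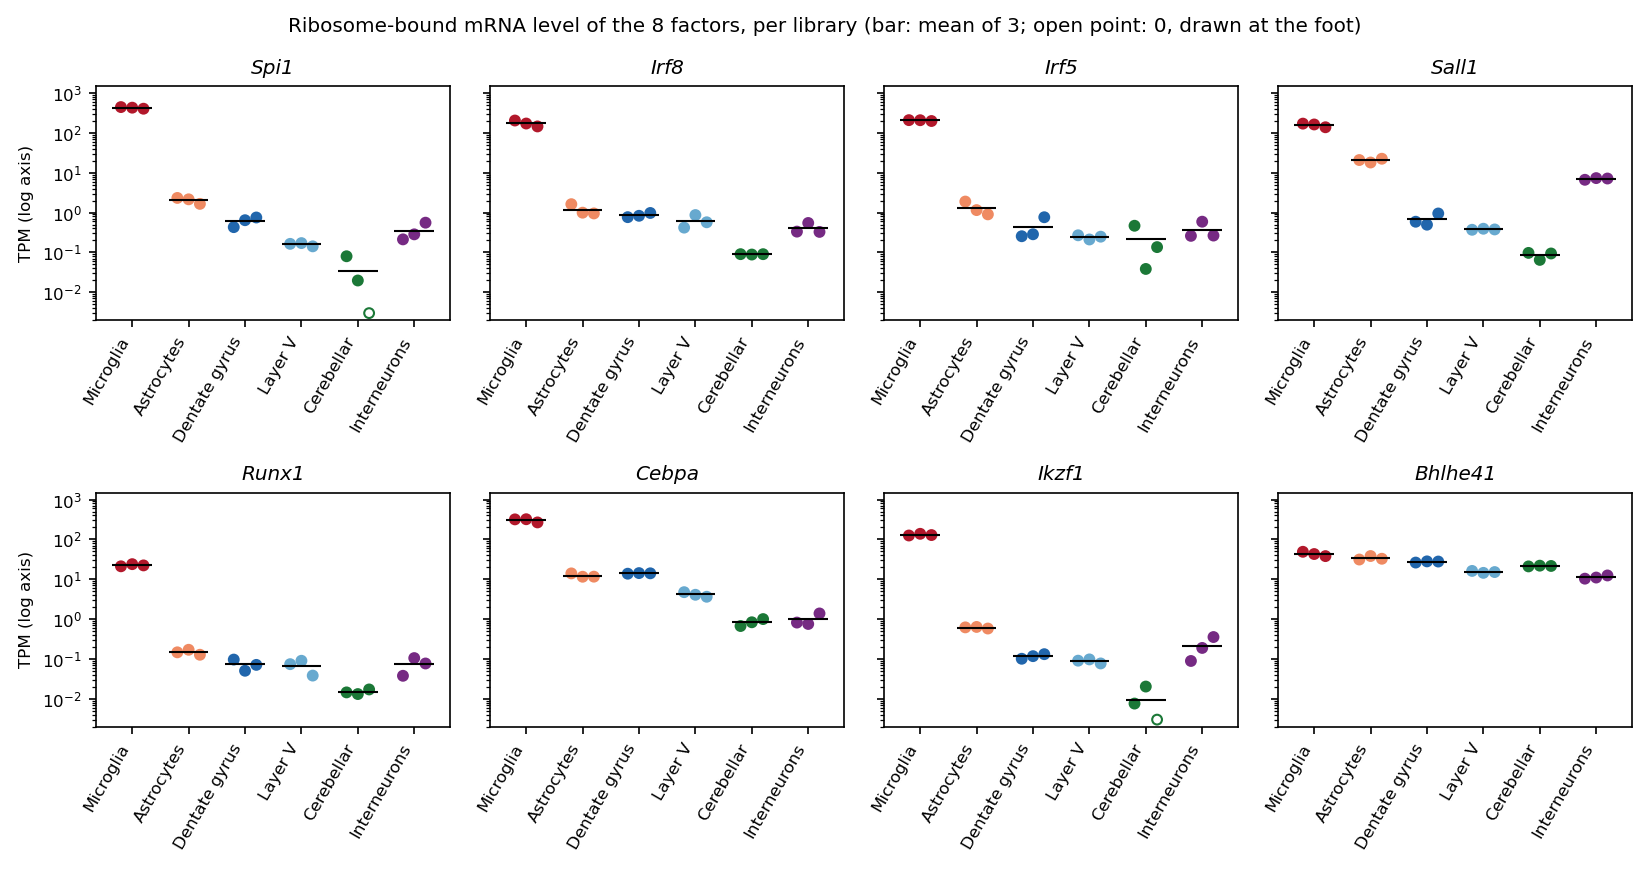
TPM of each factor (log axis) in the 3 libraries of each cell type, with a bar at their mean and an open point at the foot for a library at 0. In 7 of the 8 panels the 3 microglial points stand above all 15 others, while the Bhlhe41 points of microglia and astrocytes overlap.

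All 8 factors were higher in microglia than in the other cell types. Fold changes between cell types were fitted on the counts with edgeR's quasi-likelihood test, with Benjamini-Hochberg adjustment over the 20524 genes that passed the filter on low counts, and a gene was called at an adjusted p of at most 0.05. All 8 passed the filter, and each also exceeded its cutoff of 0.183 CPM (counts scaled to library size) in at least 3 of the 12 neuronal libraries. Against the mean of the 5 other cell types all 8 were called higher, in a comparison that called 43.2% of all tested genes higher and 37.5% lower. Each of the 8 was also called higher than in each of the 5 cell types taken singly, which held for 19.9% of tested genes. For 7 of the 8 the TPM of all 3 microglial libraries exceeded that of all 15 others, as it did for 18.9% of tested genes. The median log2 fold change of the 8 over the mean of the 5 others was 9.02, beside 0.09 for all tested genes.

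Among the 8, PU.1's gene had the widest fitted difference from the mean of the other types, although by TPM ratio Ikzf1 was slightly further from its level in astrocytes (213 against 208 for Spi1). Spi1 was at 2.33, 2.15 and 1.65 TPM in astrocytes, 0.431 to 0.753 in dentate gyrus granule cells, 0.213 to 0.558 in interneurons and 0.142 to 0.172 in layer V neurons. In cerebellar granule cells it was at 0.0802, 0.0198 and 0 TPM, from 2 counts in the 3 libraries together. The log2 fold change of microglia over astrocytes was 8.07 ± 0.14 (standard error, adjusted p = 9.5e-19 from edgeR), and over the mean of the 5 types 11.44 ± 0.09 (adjusted p = 5.5e-24 from edgeR), the 19th largest of the 20524. The second value depends on how the near-empty cerebellar libraries are fitted, since those counts carry little information on a ratio. Outside microglia the order was astrocytes, dentate gyrus granule cells, interneurons, layer V neurons and cerebellar granule cells, and the ranges of dentate gyrus granule cells and interneurons overlapped.

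The interferon regulatory factors Irf8 and Irf5 were low outside microglia. Irf8 was at 204, 172 and 145 TPM in microglia and at 0.952 to 1.63 in astrocytes, 0.768 to 0.978 in dentate gyrus granule cells and 0.419 to 0.867 in layer V neurons. Interneurons were at 0.327 to 0.548 TPM and cerebellar granule cells at 0.0885 to 0.0905. Each neighbouring pair in that order overlapped except at the ends, where microglia stood above astrocytes and cerebellar granule cells below interneurons. Irf5 was at 209, 208 and 198 TPM in microglia and at 0.902 to 1.89 in astrocytes. The 4 neuronal types lay between 0.0385 and 0.764 TPM for Irf5, and each neighbouring pair of them overlapped. Microglia exceeded astrocytes by 7.26 ± 0.17 (log2, standard error) for Irf8 and by 7.50 ± 0.14 for Irf5, with adjusted p = 1.9e-16 and 1.7e-18 from edgeR.

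By TPM, Ikzf1 and Runx1 were the 2 factors with the lowest levels outside microglia, and Runx1 was also the lowest of the 8 in microglia. Ikzf1 was at 125, 138 and 128 TPM in microglia and 0.579 to 0.635 TPM in astrocytes, and it stayed at or below 0.354 TPM in every neuronal library, with 3 counts in all in cerebellar granule cells. Runx1 was at 21.1, 23.9 and 22.2 TPM in microglia, 0.127 to 0.170 in astrocytes and at most 0.105 in neurons. The microglial groups did not overlap with any other. Over astrocytes the log2 fold change was 7.75 ± 0.12 for Ikzf1 and 7.33 ± 0.16 for Runx1 (standard errors, adjusted p = 4.0e-20 and 5.3e-18 from edgeR).

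Sall1 departed from this pattern in astrocytes and interneurons. It was at 171, 162 and 138 TPM in microglia, 20.8, 18.1 and 22.4 TPM in astrocytes and 6.65, 7.33 and 7.16 TPM in interneurons, and no neighbouring groups overlapped at any step of its order. Dentate gyrus granule cells (0.497 to 0.949 TPM), layer V neurons (0.370 to 0.393) and cerebellar granule cells (0.0650 to 0.0973) were lower. The microglial mean was 7.69 times the astrocyte mean and 22.3 times the interneuron mean, and the fitted log2 differences were 2.86 ± 0.13 and 4.79 ± 0.14 (standard errors, adjusted p = 2.9e-12 and 7.0e-15 from edgeR).

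After microglia, Cebpa was highest in dentate gyrus granule cells and astrocytes, whose order differs between mean TPM and the fit. It was at 317, 320 and 266 TPM in microglia, 13.8 to 14.3 TPM in dentate gyrus granule cells, 11.5 to 14.0 in astrocytes and 3.63 to 4.74 in layer V neurons. Dentate gyrus granule cells and astrocytes overlapped, and so did interneurons (0.754 to 1.38 TPM) and cerebellar granule cells (0.669 to 1.00). Microglia exceeded dentate gyrus granule cells by 4.70 ± 0.14 and astrocytes by 4.57 ± 0.13 (log2, standard errors, adjusted p = 3.5e-15 and 7.2e-15 from edgeR).

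Bhlhe41 was expressed in every cell type and was the only one of the 8 with less than a 4-fold difference between the microglial mean and each other mean. Its levels were 48.8, 42.9 and 38.01 TPM in microglia and 31.2, 38.2 and 32.6 TPM in astrocytes, so that microglia replicate 3 lay below astrocyte replicate 2. Then came dentate gyrus granule cells (26.2 to 28.0 TPM), cerebellar granule cells (21.0 to 21.9), layer V neurons (14.5 to 16.2) and interneurons (10.3 to 12.4), none overlapping its neighbour. The fitted log2 difference of microglia was 0.38 ± 0.08 over astrocytes (adjusted p = 5.0e-04 from edgeR) and 2.34 ± 0.09 over interneurons (adjusted p = 1.1e-14 from edgeR). Over astrocytes it was between 0.27 and 0.49 under the 30 alternative fits, and with the 10 libraries of batch 2 alone it was 0.34 (adjusted p = 0.048 from edgeR). That batch holds 1 astrocyte library, which the fit assumes to vary like the microglial and interneuron libraries.

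**Figure D2:**
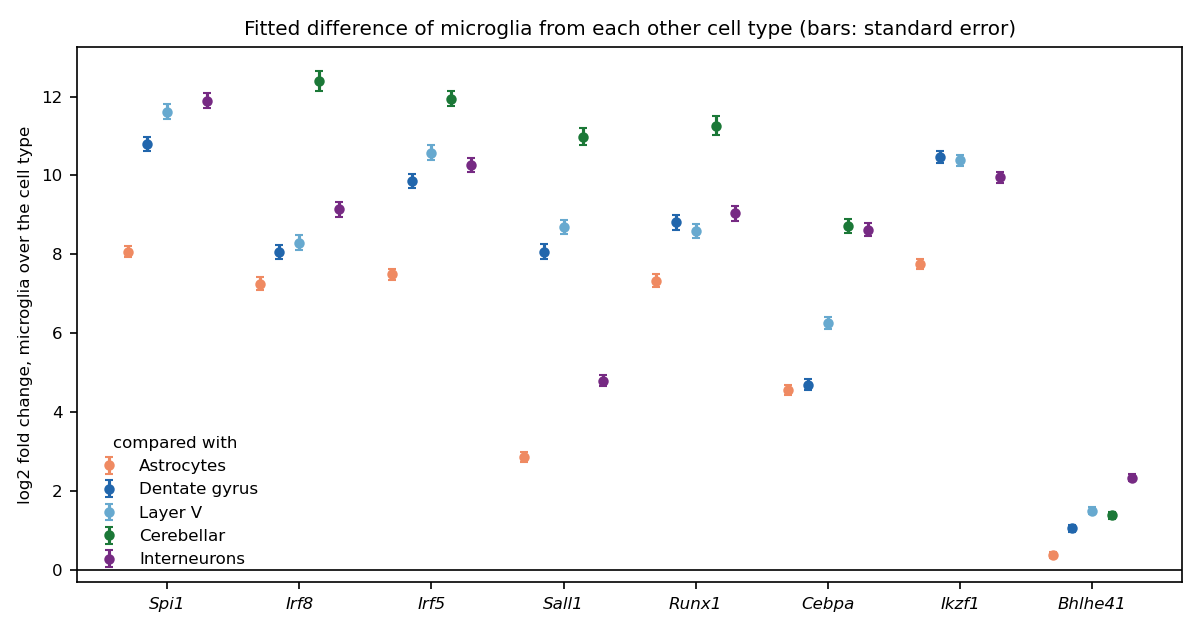
Fitted log2 fold change of microglia over each other cell type, with standard errors. Spi1 and Ikzf1 are not drawn against cerebellar granule cells, where the 3 libraries together held 2 and 3 counts. Bhlhe41 lies between 0.38 and 2.34, and the other points nearest to 0 are Sall1 over astrocytes at 2.86, and Cebpa over astrocytes at 4.57 and over dentate gyrus granule cells at 4.70.

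The microglial comparison partly coincides with the sequencing batch, because each microglial library was in batch 2. With the 10 libraries of batch 2 alone the log2 fold changes of all 8 factors over the mean of the 5 other types were again positive, from 1.26 (Bhlhe41) to 11.13 (Spi1). Of the 5 other types in that fit, interneurons had 3 libraries and the remaining 4 had 1 each, so that the spread came from microglia and interneurons. In the 4 replicates sequenced in both batches none of the 8 factors passed, and 0.0745% of the 17454 genes tested there did. These replicates include layer V replicate 1, labelled female in batch 1 and male in batch 2. The log2 differences of batch 2 over batch 1 ran from -0.29 (Runx1) to 0.30 (Irf8), and 2 of the 8, Bhlhe41 at -0.04 and Cebpa at -0.11, had an unadjusted p under 0.05, as did 720 of all genes tested. Astrocyte replicate 2, for example, had Sall1 at 18.1 TPM in batch 1 and 18.5 in batch 2, and Cebpa at 11.5 and 11.6, while at lower levels Runx1 was at 0.170 and 0.395 TPM and Ikzf1 at 0.635 and 0.441.

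The levels of microglial markers outside microglia give a scale against which the low levels can be read. Each factor's mean was expressed as a percentage of its own microglial mean and set beside the same percentage for the 8 microglial markers. In astrocytes the markers ran from 0.237% (Fcrls) to 0.717% (P2ry12), with a median of 0.386%. Of the factors, 5 lay inside that range, namely Ikzf1 at 0.469%, Spi1 at 0.481%, Irf5 at 0.642%, Runx1 at 0.660% and Irf8 at 0.686%. The other 3 lay above it, with Cebpa at 4.11%, Sall1 at 13.01% and Bhlhe41 at 78.7%. For single libraries the placing varied: in astrocyte replicate 1 Irf8 (0.936%) and Irf5 (0.922%) exceeded that library's highest marker (0.771%), and in the second-batch library of replicate 2 Runx1 was at 1.77% against 0.788%.

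In the neuronal types the markers were lower, with medians of 0.0619% in interneurons, 0.0516% in dentate gyrus granule cells, 0.0405% in layer V neurons and 0.00629% in cerebellar granule cells. The highest marker in all 4 was Gpr34, a G protein-coupled receptor gene, at 0.142% in interneurons, 0.124% in dentate gyrus granule cells, 0.102% in layer V neurons and 0.0214% in cerebellar granule cells. Spi1 was inside the marker range in interneurons (0.0826%), layer V neurons (0.0374%) and cerebellar granule cells (0.00783%), and above it in dentate gyrus granule cells (0.143%). Ikzf1 was inside the range in dentate gyrus granule cells (0.0895%), layer V neurons (0.0677%) and cerebellar granule cells (0.00712%), and above it in interneurons (0.162%). Irf8, Irf5, Sall1, Runx1, Cebpa and Bhlhe41 were above the highest marker in each of the 4 types, with Cebpa at 0.327% in interneurons. For Runx1 these percentages rested on 4 to 31 counts per type, and for Irf5 on 10 to 41. Sall1 was at 4.48% in interneurons, above all 8 markers there. The number of factors above the highest marker was 7 of 8 in dentate gyrus granule cells, 6 in cerebellar granule cells, 7 in interneurons, 6 in layer V neurons and 3 in astrocytes.

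**Figure D3:**
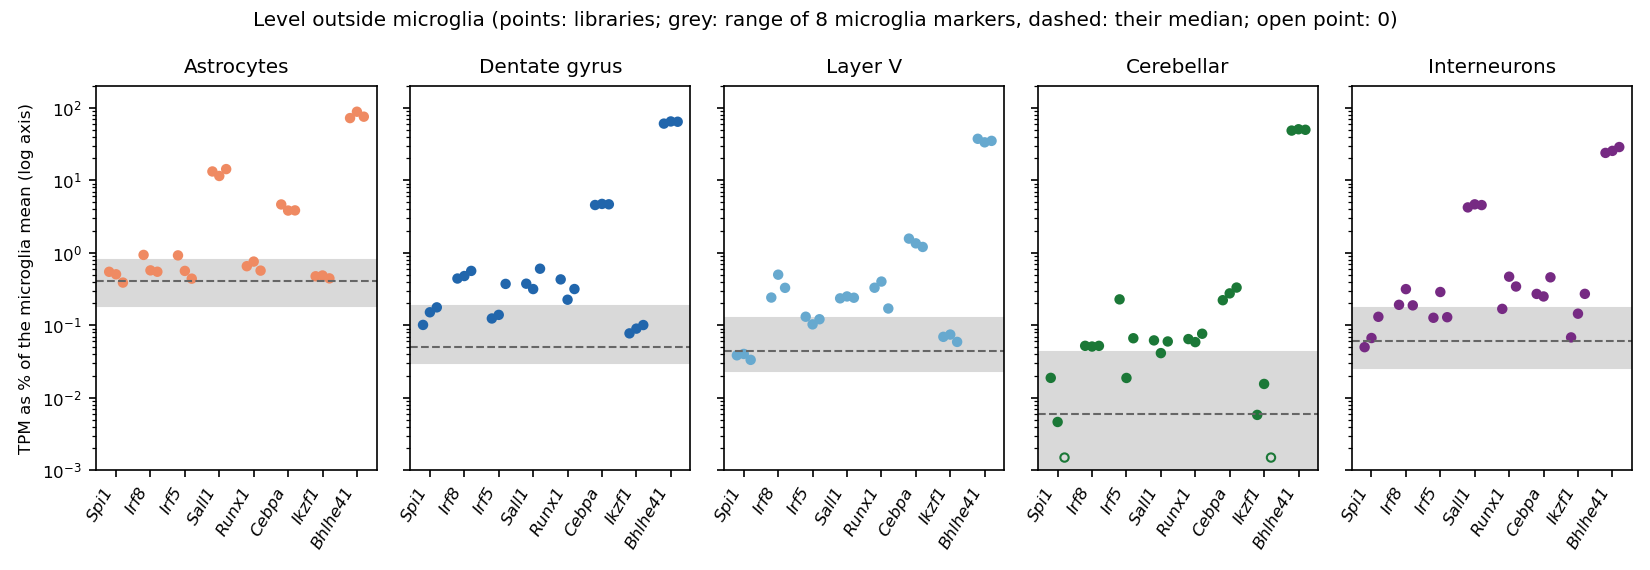
TPM in each library outside microglia as a percentage of the factor's microglial mean (log axis). The grey band spans the 8 microglial markers over the 3 libraries, the dashed line is their median and open points are libraries at 0. Bhlhe41 and Cebpa stand above the band in every panel and Sall1 in every panel but the cerebellar one. Irf8 stands above it in every neuronal panel, and Runx1 in every neuronal panel but that of interneurons. All points of Spi1 above 0 lie within the band, which spans single libraries and is wider than the range of marker means in the text.

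Among the cell types other than microglia, all 8 factors were higher in astrocytes than in the mean of the 4 neuronal types, where 42.8% of tested genes were called higher. Sall1 differed most, by 5.27 ± 0.10 (log2, standard error, adjusted p = 3.1e-17 from edgeR), followed by Spi1 at 4.22 ± 0.21, Ikzf1 at 3.40, Irf5 at 3.16, Cebpa at 2.50, Irf8 at 2.21, Runx1 at 2.09 and Bhlhe41 at 1.19. All 8 microglial markers were also called higher in astrocytes than in neurons, with a median log2 fold change of 3.98. The 10 blood leukocyte markers summed to 6.94 to 35.5 TPM in astrocytes and to at most 0.730 TPM in any neuronal library. The part of these other cells in the astrocyte values was not tested.

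Sall1 was the factor that set interneurons apart from the other neurons. Against the mean of the other 3 neuronal types it was higher by 4.46 ± 0.13 (log2, standard error, adjusted p = 2.4e-14 from edgeR). Of the remaining factors, Ikzf1 was higher by 1.59 ± 0.29, at a level below 0.4 TPM, while Cebpa (-2.07 ± 0.16) and Bhlhe41 (-1.03 ± 0.07) were lower. The interneuron range of Ikzf1 overlapped that of dentate gyrus granule cells, and the 3 cerebellar libraries in the mean held 3 counts of it. In this comparison 35.9% of all tested genes were called higher and 28.3% lower. Spi1, Irf8, Irf5 and Runx1 did not pass, with log2 differences of 0.51, 0.44, 0.52 and 0.52. Interneuron libraries also carried more oligodendrocyte-lineage RNA than any other type, with 6 markers summing to 2617 to 2801 TPM against 102.6 to 401 TPM in the other neurons. The part of those cells in the Sall1 level was not tested.

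Cebpa and Bhlhe41 distinguished dentate gyrus granule cells. Relative to the mean of the other 3 neuronal types Cebpa was higher by 3.16 ± 0.11 and Bhlhe41 by 0.69 ± 0.07 (log2, standard errors, adjusted p = 1.6e-13 and 4.1e-08 from edgeR). Spi1, Irf8, Irf5 and Ikzf1 were called higher as well, by 1.98, 1.89, 1.07 and 0.91, at levels under 1 TPM. That made 6 of 8, where 36.4% of tested genes were called higher. The dentate gyrus mean of Ikzf1 (0.117 TPM) was below that of interneurons (0.211). Dentate gyrus ranges overlapped those of interneurons for Spi1 and Irf5, and that of layer V neurons for Irf8. The 3 cerebellar libraries in the mean held 2 counts of Spi1 and 3 of Ikzf1. In the same comparison 6 of the 8 microglial markers were called higher, with a median log2 difference of 0.92 beside 0.99 for the factors, as were all 5 endothelial markers (median 1.43), and their part in these calls was not tested. Irf5 lost its call without dentate gyrus replicate 3 (0.61), and under limma on log2(TPM + 0.1) and on log2(TPM + 1), at 0.51 and 0.16. Ikzf1 lost it without that library (0.60), without cerebellar replicate 1 (0.84) and without cerebellar replicate 3 (0.71). It also lost it under the same limma scales (0.25 and 0.02), with second-batch libraries (0.68) and without a count filter (0.85). Runx1 missed the threshold at 0.82 (adjusted p = 0.061 from edgeR) and passed without dentate gyrus replicate 2 (1.10) or interneuron replicate 2 (0.97). Sall1 did not pass, at 0.09.

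The remaining neuronal types differed mostly at trace levels. In layer V neurons Irf8, Runx1, Cebpa and Ikzf1 were called higher than the mean of the other 3, by 1.56, 1.11, 1.09 and 1.02 on the log2 scale, and Sall1 lower, at -0.75. Of these only Cebpa was above 1 TPM. Layer V means of Runx1 (0.0674 TPM) and Ikzf1 (0.0883 TPM) were below those of dentate gyrus granule cells and interneurons, and above those of cerebellar granule cells alone, whose 3 libraries held 4 and 3 counts of these genes. The comparison called 35.8% of tested genes higher and 31.6% lower. Spi1, Irf5 and Bhlhe41 did not pass, at 0.89, 0.12 and 0.09. Without layer V replicate 1 the Runx1 difference of 0.84 was not called, and Spi1 passed without layer V replicate 3 (1.14) or dentate gyrus replicate 3 (1.02). Runx1 also lost its call with second-batch libraries (0.68) and under limma on log2(TPM + 0.1) and log2(TPM + 1), at 0.15 and 0.02. Irf8 lost its call under limma on log2(TPM + 1), at 0.19. Cerebellar granule cells had the lowest mean for 7 of the 8 factors, all called lower, with log2 differences from -3.90 (Irf8) to -1.71 (Irf5), where 42.9% of tested genes were called lower. All 8 microglial markers were called lower there too, with a median log2 difference of -2.93 beside -2.91 for the 8 factors, and all 5 endothelial markers (median -1.84). Their part in the result was not tested. Irf5 lost its call with limma on log2(TPM + 0.1) and on log2(TPM + 1), at -0.68 and -0.16, and Runx1 with the latter, at -0.08. Bhlhe41 was the exception, higher by 0.25 ± 0.07 (adjusted p = 0.0027 from edgeR) where 34.8% of genes were called higher.

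The genes most like each factor were found by the Pearson correlation of log2(TPM + 1) over the 18 libraries, among 14157 genes that reached a mean of 5 TPM in at least 1 cell type. These correlations describe cell types that share libraries and replicates, and for the factors that are near 0 outside microglia a high value is shared by many microglial genes. For Spi1 the closest were Itgam, an integrin of myeloid cells (r = 0.999), the apoptosis protease gene Casp8 (r = 0.999) and Pld4 (r = 0.999). Irf8 was most like Nckap1l, Ang and Galnt12 (r = 0.998 each), and Irf5 most like Vav1 and Cd300c2 (r = 0.999, n = 18 libraries) and Abca9 (r = 0.998).

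Runx1 was closest to the Toll-like receptor gene Tlr9, to Fcrl1 and to F9 (r = 0.9997, 0.9996 and 0.9996), and Ikzf1 to Nfam1, Gm30329 and Tifab (r = 0.9995, 0.9995 and 0.9994). For Sall1, with its astrocyte and interneuron levels, the nearest were Serpinf1 (r = 0.995), which was at 258 TPM in microglia, 43.9 in astrocytes and 12.3 in interneurons, Elovl1 (r = 0.992) and Cd82 (r = 0.992). Cebpa was most like another interferon regulatory factor gene, Irf1 (r = 0.990), at 44.5 TPM in microglia, 6.10 in dentate gyrus granule cells and 5.66 in astrocytes, then Slc9a9 (r = 0.988) and Orai3 (r = 0.983). Bhlhe41 had the loosest matches, with Ctdsp2 at r = 0.965, Poglut3 at 0.954 and Mettl7a1 at 0.953. Between the factors themselves, r was 0.990 or more for every pair of Spi1, Irf8, Irf5, Runx1 and Ikzf1, and it was 0.579 between Sall1 and Bhlhe41, the lowest of all pairs.

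One annotated transcript made up most of the microglial signal of each factor. Irf8-201 gave 98.9% of the Irf8 TPM, Cebpa-201 95.5%, Irf5-201 91.5%, Bhlhe41-201 86.7%, Runx1-201 83.8%, Spi1-201 76.7% and Ikzf1-204 66.1%, and Sall1 has a single transcript in the index. For Ikzf1 the next was Ikzf1-203 at 20.0%. For Spi1, the short models Spi1-204 and Spi1-202, whose first bases at 91082390 and 91082408 lie upstream of that of Spi1-201 at 91096096, gave 13.4% and 6.06% of the TPM. They held 3.12% and 1.14% of the estimated counts, because TPM weights short transcripts more. Protein-coding transcripts held at least 98.8% of each factor's estimated counts in every microglial library.

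The Runx1 mRNA of microglia was assigned mainly to the transcript model with the distal start. Runx1-201, which starts at 92826149 beside the distal sequence printed above, was at 18.7 ± 0.726 TPM, and Runx1-202, which starts at 92697328 at the proximal sequence, at 2.87 ± 0.656 TPM (SD, n = 3 each). The distal transcript lay between 18.3 and 19.6 TPM and the proximal between 2.11 and 3.30, with no overlap. They had 83.8% and 12.7% of the gene's TPM, and 88.2% and 10.8% of its estimated counts. The models also differ at their other ends, at 92601466 (Runx1-201) and 92603656 (Runx1-202). Their shares therefore do not measure the start alone, and promoter use was not tested. The distal promoter is known as the main Runx1 promoter of adult haematopoietic cells. Outside microglia Runx1 counts were too few, from 4 to 82 per cell type, for the models to be compared.

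**Figure D4:**
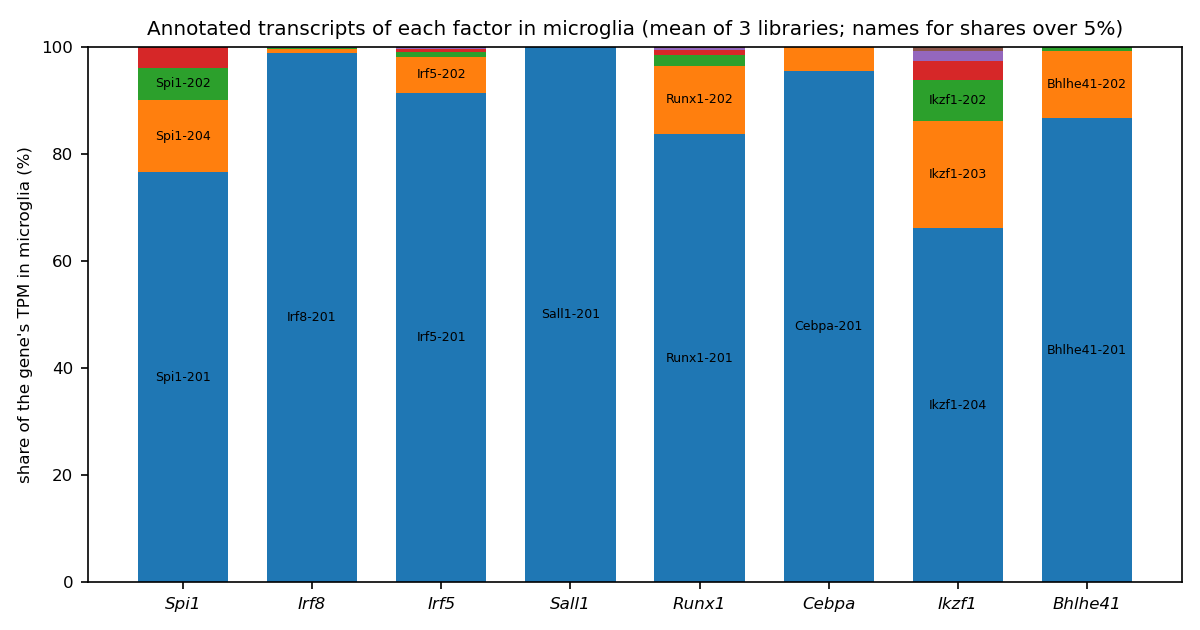
Share of each factor's microglial TPM carried by each annotated transcript (mean of 3 libraries, stacked to 100%), with names on shares above 5%. A single transcript carried from 66.1% (Ikzf1) to 100% (Sall1) of the signal.

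Relatives of the factors within the same families were higher in microglia to very different degrees. All 7 other interferon regulatory factor genes tested were called higher than the mean of the other cell types, where 43.2% of tested genes were. Their median log2 fold change was 3.78, beside 0.09 for all genes. Irf2, a widely expressed repressor and activator, was at 99.3 ± 6.91 TPM in microglia and from 17.3 to 26.4 TPM on average elsewhere. Irf9, the DNA-binding subunit of the type I interferon complex, was at 49.1 ± 2.79 TPM in microglia and at most 8.43 TPM on average elsewhere (SD, n = 3). Irf7, which is induced by interferon, was at 11.3 ± 1.46 TPM.

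Of 8 ETS relatives, 6 were called higher in microglia, 1 lower (Ets2, at -1.10) and Spic was not tested. Of all tested genes, 43.2% were called higher and 37.5% lower. Fli1 and Elf4 came nearest to Spi1, with log2 fold changes of 7.97 ± 0.11 and 8.85 ± 0.11, and Fli1, which endothelial cells are also known to express, was at 54.0 ± 1.71 TPM in microglia. Among RUNX-related genes, Cbfb, the partner subunit that RUNX proteins need for stable DNA binding, was higher by 2.01 ± 0.07 and was at 55.0 TPM in microglia and 7.45 to 36.9 TPM elsewhere. Runx2 was called higher than the mean of the logs of the other types, by 0.67, although it averaged 1.47 TPM in microglia against 6.92 in dentate gyrus granule cells, 3.87 in layer V neurons and 2.25 in interneurons. Runx1t1 was lower, at -1.83, and Runx3 was not tested.

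Within the C/EBP family, Cebpb, Cebpd and Cebpg were called higher in microglia, by 4.22, 4.51 and 2.23, Ddit3 was at 0.03 (adjusted p = 0.71 from edgeR), and Cebpe was not tested. Cebpb and Cebpd, like Cebpa, had their second-highest mean TPM in dentate gyrus granule cells, although for Cebpa astrocytes were close (14.0 and 12.4 TPM). Cebpb was at 133 ± 20.3 TPM in microglia and 69.2 ± 2.78 in dentate gyrus granule cells, and Cebpd at 41.4 ± 1.38 and 35.1 ± 2.26 TPM (SD, n = 3), while both were below 16 TPM on average in each other cell type. The other Ikaros genes were low or modestly different: Ikzf2, Ikzf3 and Ikzf4 were higher by 1.00, 2.69 and 1.11, and Ikzf5 lower, at -0.94.

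Paralogues of Sall1 and Bhlhe41 moved in different directions. Sall3 was higher in microglia by 6.42 ± 0.19 and, like Sall1, had its second level in astrocytes (18.9 ± 2.88 and 9.48 ± 1.67 TPM), whereas Sall2 was lower (-1.58 ± 0.07), at 12.7 TPM in microglia and 18.6 to 68.0 TPM elsewhere. Sall4 did not pass, with under 0.5 TPM on average in every cell type. Bhlhe40 (DEC1), the paralogue of Bhlhe41, was lower in microglia, with a log2 difference of -2.04 ± 0.10 (standard error, adjusted p = 5.1e-12 from edgeR). Bhlhe40 was at 15.03 ± 1.86 TPM in microglia and 17.0 ± 1.27 in interneurons, against 69.8 to 108 TPM in the other 4 types.

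Other transcription factors known from macrophages were called higher in microglia than in the mean of the logs of the other types, 11 of 11. That comparison called 43.2% of tested genes higher, and the median log2 fold change of the 11 was 1.81. Lyl1 was at 119 ± 5.27 TPM (SD, n = 3) in microglia and at most 1.09 TPM on average elsewhere. Not all were highest in microglia. Id3 averaged 32.5 TPM in microglia and 273 in astrocytes, Mef2c 172.5 and, in layer V neurons, 430, Smad3 50.5 and, in dentate gyrus granule cells, 103.5, and Mef2a, Nr1h3 and Zeb2 also had a higher mean in at least 1 other type. Of 6 factors known from other macrophages and progenitors, Tal1 (a factor of endothelial and blood progenitors too), Batf3 and Myb were higher, by 6.55, 5.60 and 2.16, Pparg did not pass (0.23, adjusted p = 0.12 from edgeR), and Gata6, which marks peritoneal macrophages, and Gfi1 were too low to be tested.

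Upstream, all 10 receptors, adaptors and ligands of the list were called higher in microglia, where 43.2% of tested genes were. Csf1r, the receptor on which microglial survival depends, was at 3793 ± 136 TPM, and Tyrobp, an adaptor that couples immune receptors to the kinase Syk, at 2740 ± 64.1 TPM (SD, n = 3). The transforming growth factor beta receptors Tgfbr1 and Tgfbr2, known to be needed for the mature microglial programme, were at 353 ± 25.6 and 109 ± 8.08 TPM, and the ligand Tgfb1 at 244 ± 18.8 TPM. The 2 ligands of CSF1R were not highest in microglia. Csf1 averaged 21.1 TPM in dentate gyrus granule cells and 18.5 in astrocytes against 11.6 in microglia, and Il34 averaged 102 TPM in layer V neurons and 72.1 in interneurons against 22.3 in microglia, although both were called higher in microglia than the mean of the logs of the other 5 types, by 0.47 and 0.38.

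Downstream, 11 of 11 genes known as microglial targets of these factors were called higher in microglia, where 43.2% of tested genes were. Their median log2 fold change was 11.02. The list is made of genes known from microglia, and Tmem119, P2ry12, Siglech and Cx3cr1 are also among the microglial markers above. The count is therefore no test of the factors, and regulation of these genes by them was not tested. The listed genes included Tmem119 at 1130 ± 37.9 TPM, P2ry12 at 1591 ± 99.9 TPM (SD, n = 3) and Slc2a5 at 139 TPM. Fold changes in the list ran from 9.40 (Aif1) to 12.18 (Ctss). Among the 8 factors, Spi1, Ikzf1 and Irf5 had fold changes inside that range, and Irf8 and Runx1, at 9.03 and 9.01, were just below it.

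**Figure D5:**
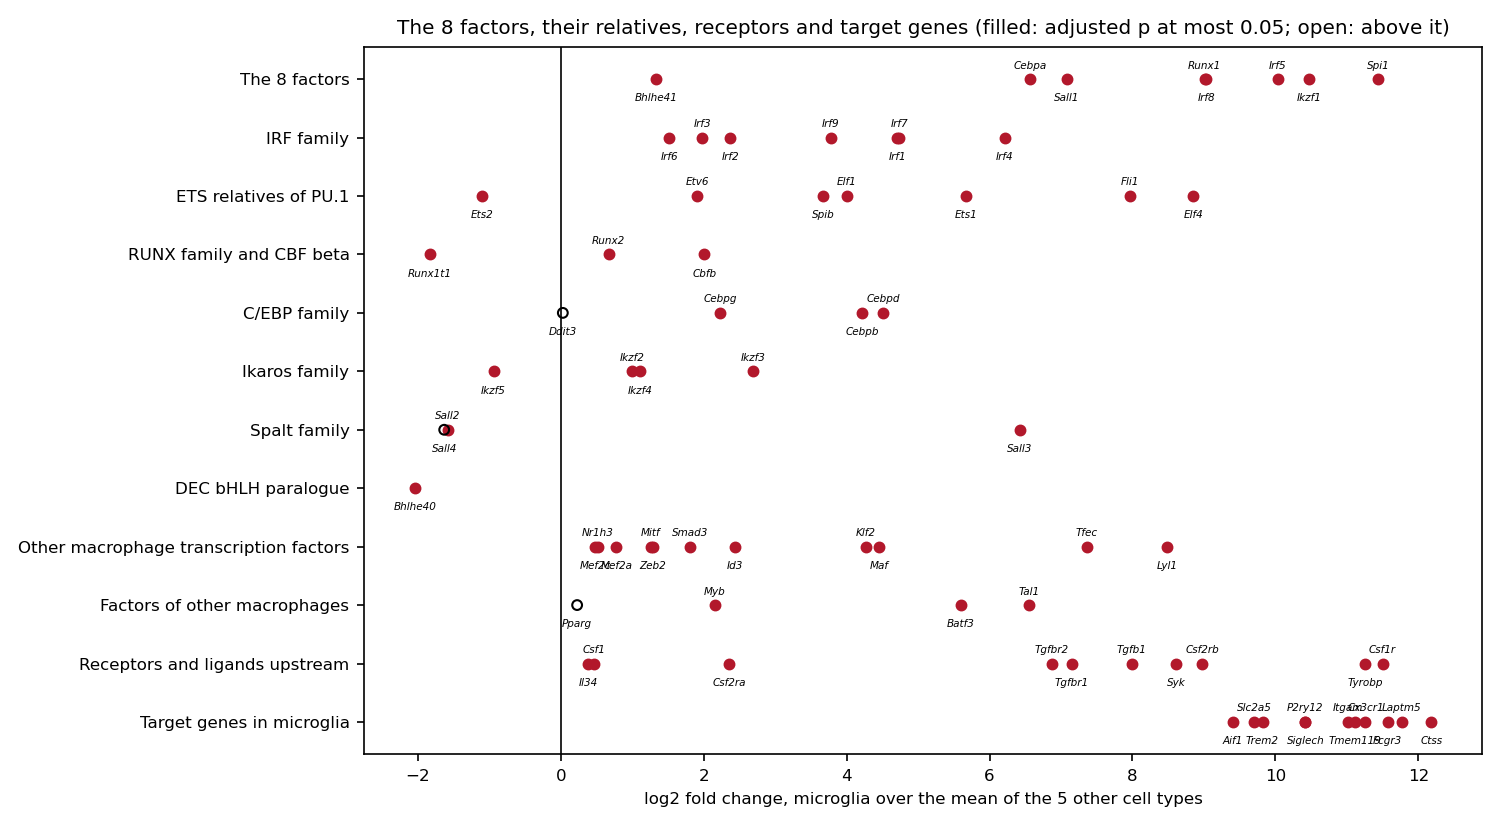
Log2 fold change of microglia over the mean of the 5 other cell types for the 8 factors and for related gene lists, with filled points for genes called at an adjusted p of at most 0.05 and open points for the others. The target genes lie between 9.40 and 12.18, the 8 factors between 1.33 and 11.44, and the paralogue Bhlhe40 at -2.04.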

How the data were processed

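The study's authors trimmed paired reads of stranded mRNA libraries with cutadapt 3.5 and quantified them with kallisto 0.46.2 against GENCODE M24 transcripts (GRCm38). The deposited values used here were estimated counts and TPM per transcript; both were summed per gene, and estimated counts were rounded. Whether strand was used in quantification was not given in the sources used here. The 18 libraries were fitted together, 1 coefficient per cell type, with edgeR 4.0.16 (TMM factors, filterByExpr, robust quasi-likelihood fit; R 4.3.3), because the study's own tool, sleuth, was not at hand. Standard errors are the log2 fold change divided by the square root of F. On simulated counts for the microglial comparison (20524 genes), 100 of 100 genes changed 2-fold and 100 of 100 changed 4-fold were recovered, and 13 unchanged genes were called. The changed genes were drawn from better-counted genes only, and every gene was given the same spread. Recovery at trace counts was therefore not examined. Alternatives were other normalizations and filters, DESeq2 1.42.0, limma 3.58.1 on log2(TPM + 0.1) and log2(TPM + 1), protein-coding transcripts, batch handling, a replicate block and leaving out each replicate. Named were all 8 factors, list genes on which counts turn, and the 3 genes most correlated with each factor. The factors and gene lists were chosen with earlier results of these data known. Gene positions are from GENCODE M21 and promoters from RefSeq, both on GRCm38. Depth limits trace levels. Each p-value sets a difference against the spread between replicate libraries, 3 per cell type, estimated for each gene over all 6 cell types together and moderated across genes. Some genes of the lists are not reported here.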

Additional observations from a re-analysis of the deposited data

How the results depend on the processing

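All 8 factors were called higher in microglia than in the mean of the other types, than in each single type and in astrocytes against neurons under every alternative run. The microglial log2 fold changes shrank most under limma on log2(TPM + 1), to 4.44 for Runx1 and 8.14 for Spi1. The replicate block changed none of these calls, with 11.44 for Spi1 and 1.33 for Bhlhe41 over the other types; of 45 same-numbered pairs of libraries, 8 had deviations correlated above 0.1 (-0.16 to 0.22), so the numbers were not treated as pairing. TPM scales moved the median of all genes in the microglial comparison from 0.09 to -0.08, and the share of calls that were higher from 53.5% to 45.2%.

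Neuronal contrasts were less stable. Limma on log2(TPM + 0.1) and log2(TPM + 1) called 2 and 1 factors higher in layer V neurons rather than 4, and each called 2 lower rather than 1; with the latter 1 factor (Sall1) was lower in dentate gyrus granule cells. Signs turned under these 2 scales, in that order, for layer V Spi1 (-0.38, -0.17), Irf5 (-0.18, -0.09), Ikzf1 (-0.02, -0.03) and Bhlhe41 (-0.30, -0.29), for dentate gyrus Sall1 (-0.18, -0.46) and for interneuron Irf8 (-0.02, -0.08). With second-batch libraries layer V Irf5 was -0.08 and dentate gyrus Sall1 -0.02. With 1 library left out, layer V Irf5 ran from -0.03 (without layer V replicate 1; -0.01 without dentate gyrus replicate 2) to 0.26, dentate gyrus Sall1 from -0.22 (without its replicate 3) to 0.22, and interneuron Runx1 from -0.04 (without its replicate 2) to 0.77. The cause was not tested. Between batches no factor tested was called under any alternative (Runx1 could not be tested without astrocyte replicate 2). With 1 pair left out, Irf5 ran from -0.17 (without dentate gyrus replicate 3; -0.09 with DESeq2) to 0.12, Sall1 from -0.07 to 0.04 and Ikzf1 from -0.18 to 0.28, and the genes called numbered 18 to 39 (39 without astrocyte replicate 2, 29 without cerebellar replicate 3, 22 without layer V replicate 1) and 46 without a count filter, against 13.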
